A study of Rattus norvegicus with 14 samples.

Results

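The genes described here are 10 genes that colon epithelium uses to build and secrete its mucus: the gel-forming mucin Muc2, the transmembrane mucins Muc1, Muc4 and Muc13, the mucus proteins Fcgbp, Zg16, Itln1 and Tff3, and Agr2 and Spdef, which act inside the secretory cell. They were chosen by name, each matched exactly 1 row of the 26319 rows in the deposited table, and all 10 passed the filter on low counts. Total RNA was sequenced from distal colon of male Wistar rats, 72 h after treatment. Inflamed samples (n = 6) came from a visibly inflamed region of rats given TNBS, a hapten instilled into the colon that provokes colitis, and uninflamed samples (n = 6) from a region of the same 6 rats that did not adjoin the lesion. Control samples (n = 2) came from colon sections taken at random from 2 control rats, so that their position along the colon was not matched to the TNBS samples. The sample labels describe these rats as vehicle-treated, and the paper calls the controls untreated. The question was how the mucus genes differ between inflamed and uninflamed regions (I-UI), between inflamed regions and controls (I-C) and between uninflamed regions and controls (UI-C). Animal ages are not given in the sources used here.

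Goblet cells fill granules with MUC2, a very large glycoprotein that unfolds on release into the gel covering the colon. FCGBP is bound to that gel, ZG16 is a lectin that binds Gram-positive bacteria, intelectin (Itln1) is a lectin for microbial sugars, and TFF3 is a small trefoil peptide that promotes epithelial repair. AGR2 is a protein disulfide isomerase of the endoplasmic reticulum needed for MUC2 production in mice, and SPDEF is an ETS-family transcription factor that drives goblet cell maturation. MUC1, MUC4 and MUC13 are anchored in the apical membrane and form the glycocalyx, and they are not restricted to goblet cells.

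Library totals ran from 6734968 to 13792657 reads in inflamed, 7813797 to 13234808 in uninflamed and 12013023 to 12041314 in control libraries. Levels below are CPM, a gene's reads scaled to a fixed library size after TMM adjustment, a correction for libraries in which a few genes take many reads. TMM factors were 0.98 to 1.24 in inflamed, 0.63 to 1.19 in uninflamed and 0.633 to 0.866 in control libraries. Colon epithelium was present in every group: each of 14 epithelial markers had reads in all 14 libraries. The inflamed library of animal 221 stood apart from the other inflamed libraries, with the highest level of all 10 mucus genes in its group. Results of single genes whose call changed without it are given with and without it, while correlations are given only with it. Genes were called, over 18678 genes in edgeR's quasi-likelihood test, where they changed 2-fold or more with p below 0.05 after Benjamini-Hochberg adjustment, and a gene so called is said to have passed the threshold. Changes are log2 ratios of the first-named group over the second, ± the standard error from the fit.

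The promoters of 4 genes are shown because, with group means removed, their levels moved together across the libraries in 2 pairs, Muc2 with Spdef and Muc13 with Tff3. RefSeq (GRCr8) gave a promoter for 9 of the 10 genes. Each line holds the 250 bases before the annotated start, 5′ to 3′, on the strand of the gene. Capitals mark any match, on either strand, to TATAAA (the TATA box), TTTAT (a core of CDX sites), CAGGAT (which holds the GGAT core that SPDEF prefers) or CAGCTG (an E-box). TATAAA and TTTAT can overlap, since TTTAT reads ATAAA on the opposite strand, which lies within TATAAA.
Muc2 (chr1:206228785-206229034, plus strand): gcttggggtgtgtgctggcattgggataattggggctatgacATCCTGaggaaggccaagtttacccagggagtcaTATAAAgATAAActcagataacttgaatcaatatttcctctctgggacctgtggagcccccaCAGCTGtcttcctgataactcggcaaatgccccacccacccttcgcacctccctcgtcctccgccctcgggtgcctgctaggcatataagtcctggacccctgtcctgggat
Spdef (chr20:5787686-5787935, minus strand): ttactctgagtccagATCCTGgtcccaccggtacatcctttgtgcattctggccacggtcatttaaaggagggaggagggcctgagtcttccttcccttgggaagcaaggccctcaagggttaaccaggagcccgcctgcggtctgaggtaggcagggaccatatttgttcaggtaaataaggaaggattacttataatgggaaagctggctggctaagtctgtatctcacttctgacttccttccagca
Muc13 (chr11:80485407-80485656, minus strand): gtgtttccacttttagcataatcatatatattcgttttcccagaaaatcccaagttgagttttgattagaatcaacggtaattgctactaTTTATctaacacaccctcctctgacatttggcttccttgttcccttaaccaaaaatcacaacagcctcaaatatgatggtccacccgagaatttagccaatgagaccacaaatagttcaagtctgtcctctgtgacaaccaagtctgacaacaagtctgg
Tff3 (chr20:9199334-9199583, minus strand): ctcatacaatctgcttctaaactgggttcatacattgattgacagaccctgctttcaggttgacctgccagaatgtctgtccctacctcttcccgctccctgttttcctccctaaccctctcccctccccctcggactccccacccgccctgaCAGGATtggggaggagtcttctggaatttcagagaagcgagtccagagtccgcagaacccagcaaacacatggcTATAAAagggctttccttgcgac
Of 33469 promoter windows of this length, 12.9% held TATAAA, 39.3% TTTAT, 13.6% CAGGAT and 12% CAGCTG. Muc2 held all 4 motifs, with TATAAA beginning 174 bases before the start and CAGCTG 112 bases before it. Tff3 held TATAAA 23 bases before the start, with the overlapping TTTAT match at 22 bases, and CAGGAT 97 bases before it. Spdef held CAGGAT alone, 235 bases before its start. Muc13 held only TTTAT. These matches describe the letters in the window and were not tested as binding sites.

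Mucus genes were lower in inflamed than in uninflamed regions: in I-UI 9 of the 10 genes fell and none rose, while 6.95% of all genes tested were lower and 6.15% higher past the same threshold. The median log2 ratio of the 10 genes was -2.33, from -3.78 for Itln1 to -1.67 for Spdef, and the median of all genes was 0.04. For 6 of the 10 genes every inflamed library lay below every uninflamed library, which held for 5.2% of all genes. In a bulk sample, fewer goblet cells, less RNA per goblet cell and a smaller share of epithelium cannot be told apart. The inflamed and uninflamed regions of a rat also lay at different places in the colon, and the part of position was not tested.

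**Figure D1:**
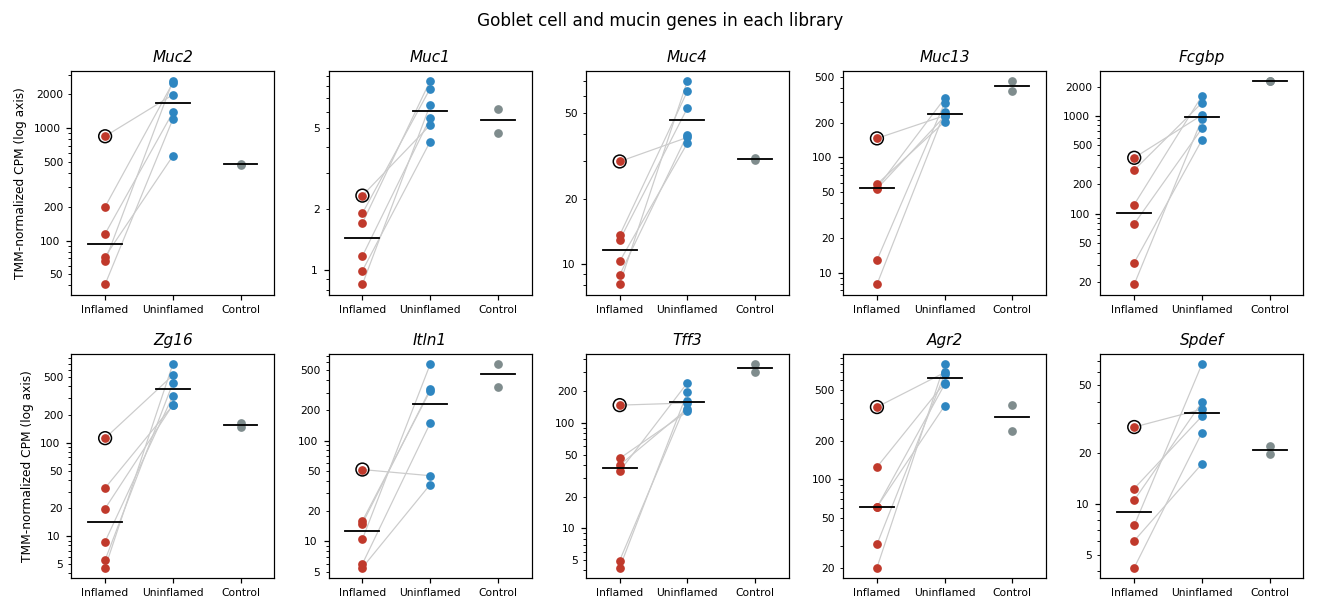
Each panel plots 1 gene, with TMM-normalized CPM on a log axis and 1 point per library for inflamed (n = 6), uninflamed (n = 6) and control (n = 2) samples. Black bars are medians, grey lines join the regions of 1 animal, and the open circle marks the inflamed library of animal 221, which held the highest inflamed value of all 10 genes, for Muc2 847 CPM against an inflamed median of 93.6 CPM.

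Muc2, the gel-forming mucin, had 40.8, 93.6 and 847 CPM (lowest, median and highest) in inflamed regions, against 565, 1680 and 2630 CPM in uninflamed regions and 475 and 479 CPM in controls. Inflamed regions lay below the uninflamed region of the same rat in 6 of 6 animals, at 0.0249 to 0.427 of its level, and the groups overlapped only because animal 221, with 847 CPM in its inflamed region, exceeded the uninflamed region of animal 218. Muc2 fell in I-UI at a log2 ratio of -2.94 ± 0.70 (adjusted p = 0.00754). In I-C its log2 ratio was -1.09 ± 0.88 (adjusted p = 0.439), which became -2.27 (adjusted p = 0.00995) without the inflamed library of animal 221.

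Among the transmembrane mucins, Muc13 had 7.90, 53.7 and 146 CPM (lowest, median and highest) in inflamed regions, against 204, 238 and 324 CPM in uninflamed regions and 460 and 374 CPM in controls. The groups did not overlap, and inflamed regions lay below uninflamed regions and uninflamed regions below controls. Muc13 fell in I-UI (log2 ratio -2.20 ± 0.53, adjusted p = 0.00772) and in I-C (log2 ratio -2.91 ± 0.65, adjusted p = 0.00829). The I-C call was lost without control 216 (adjusted p = 0.0666) and in the fit of the 2 groups alone (adjusted p = 0.0524). Muc4, which can pair with the receptor ERBB2, had 8.06, 11.6 and 29.8 CPM in inflamed regions, against 36.2, 46.1 and 70.2 CPM in uninflamed regions and 30.8 and 30.2 CPM in controls. The highest inflamed value, again of animal 221, lay just under the controls. Muc4 fell in I-UI (log2 ratio -1.84 ± 0.30, adjusted p = 0.000746), and in I-C its log2 ratio was -1.13 ± 0.39 (adjusted p = 0.062), which passed in exactTest (adjusted p = 0.0294), DESeq2 (0.0412) and limma-voom (0.0381), and without the inflamed library of animal 221 (0.00127). Muc1 was counted with few reads, 8 to 34 in inflamed, 35 to 99 in uninflamed and 47 to 49 in control libraries. It had 0.85, 1.43 and 2.32 CPM in inflamed regions, against 4.27, 6.02 and 8.49 CPM in uninflamed regions and 4.71 and 6.17 CPM in controls. Its fall was the one with the smallest adjusted p of the 10 genes in I-UI (log2 ratio -2.06 ± 0.27, adjusted p = 0.000195) and in I-C (log2 ratio -1.85 ± 0.35, adjusted p = 0.00315), and its inflamed values lay below all others. The I-C call was lost with library totals in place of TMM factors (adjusted p = 0.053) and without control 217 (adjusted p = 0.0505).

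The lectins showed the largest falls of the 10 genes in I-UI. Zg16 had 4.62, 14.3 and 112 CPM (lowest, median and highest) in inflamed regions, against 251, 374 and 692 CPM in uninflamed regions and 148 and 163 CPM in controls. Inflamed regions held 0.00667 to 0.213 of the level in the uninflamed region of the same rat, and Zg16 fell in I-UI at a log2 ratio of -3.74 ± 0.73 (adjusted p = 0.00231). In I-C every inflamed library was lower than both controls, at a log2 ratio of -2.34 ± 0.85 (adjusted p = 0.075), and of -3.44 (adjusted p = 0.0011) without the inflamed library of animal 221. It passed there in exactTest (adjusted p = 0.00922), DESeq2 (0.0302) and limma-voom (0.0242). Itln1 had 5.47, 12.8 and 51.7 CPM in inflamed regions, against 36.6, 231 and 573 CPM in uninflamed regions and 577 and 343 CPM in controls. It spanned a 15.7-fold range among the uninflamed regions, the widest of the 10 genes there, with 44.9 CPM in animal 221 and 36.6 CPM in animal 223 beside 573 CPM in animal 219. Animal 221 was the one rat whose inflamed region was not lower, at 1.15 times its uninflamed region. Itln1 fell in I-UI (log2 ratio -3.78 ± 0.75, adjusted p = 0.00273) and in I-C (log2 ratio -4.72 ± 0.88, adjusted p = 0.00358).

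Fcgbp had 18.9, 101 and 373 CPM (lowest, median and highest) in inflamed regions, against 568, 974 and 1600 CPM in uninflamed regions and 2260 and 2280 CPM in controls. The groups formed 3 steps with no overlap, and Fcgbp fell in I-UI (log2 ratio -2.78 ± 0.62, adjusted p = 0.00479) and in I-C (log2 ratio -3.91 ± 0.75, adjusted p = 0.00368). A related gene, Fcgbpl1, with which reads could be shared, had 50 to 138 reads in inflamed libraries, or 1.64% to 25% of the Fcgbp count, 88 to 199 reads in uninflamed libraries, or 0.928% to 2.89% of it, and 169 and 299 reads in controls, or 0.718% and 1.72% of it. Tff3 had 4.25, 37.3 and 147 CPM in inflamed regions, against 128, 158 and 239 CPM in uninflamed regions and 359 and 302 CPM in controls. It was the one gene short of the threshold in I-UI, at a log2 ratio of -1.87 ± 0.65 (adjusted p = 0.0508), although lower in 6 of 6 animals. The inflamed region of animal 221 held 0.96 of its uninflamed level, and without that library the log2 ratio was -2.70 (adjusted p = 0.00283). With the animal as a block it was -2.67 (adjusted p = 0.0325). In I-C Tff3 fell (log2 ratio -2.84 ± 0.81, adjusted p = 0.0285), a call lost in 8 of 17 alternatives, with adjusted p = 0.147 without control 216, 0.108 without control 217 and 0.0575, 0.0619 and 0.0621 without animals 218, 219 and 222. It was also lost with library totals (adjusted p = 0.079), with no filter on low counts (0.0513) and in the fit of the 2 groups alone (0.11).

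Agr2 had 20.3, 60.5 and 370 CPM (lowest, median and highest) in inflamed regions, against 379, 622 and 803 CPM in uninflamed regions and 382 and 238 CPM in controls. It fell in I-UI (log2 ratio -2.46 ± 0.59, adjusted p = 0.00754), and in I-C its log2 ratio was -1.48 ± 0.74 (adjusted p = 0.197). Spdef, the transcription factor, had 4.19, 8.99 and 28.4 CPM in inflamed regions, against 17.2, 34.5 and 66.8 CPM in uninflamed regions and 21.8 and 19.7 CPM in controls. It had the smallest fall of those that passed in I-UI (log2 ratio -1.67 ± 0.42, adjusted p = 0.0106), and in I-C its log2 ratio was -0.85 ± 0.56 (adjusted p = 0.344). Without the inflamed library of animal 221 the I-C values were -2.38 for Agr2 (adjusted p = 0.00315) and -1.36 for Spdef (adjusted p = 0.0348).

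**Figure D2:**
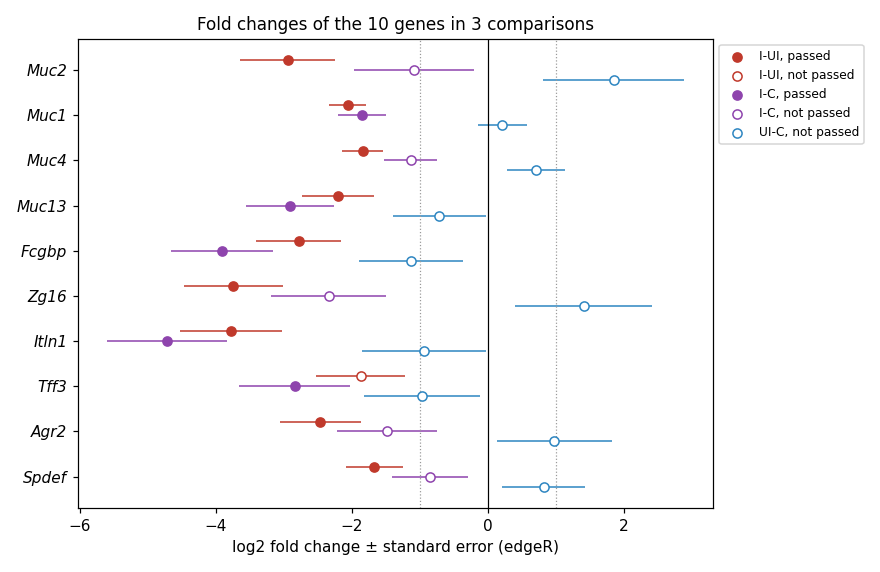
Log2 ratios with standard errors from edgeR are plotted for the 10 genes in I-UI, I-C and UI-C, with filled points past the threshold and dotted lines at a 2-fold change. All I-UI and I-C values are negative, while the UI-C values run from -1.13 for Fcgbp to 1.85 for Muc2 and none of them passed.

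Against controls, 5 of the 10 genes fell in inflamed regions and none rose (Muc1, Muc13, Fcgbp, Itln1 and Tff3), beside 7.79% of all genes tested that were lower and 5.93% that were higher past the threshold. Their median log2 ratio was -2.10, beside 0.10 for all genes. For 7 genes every inflamed library was below both controls, which held for 14.3% of all genes. Under exactTest, DESeq2 and limma-voom 7 genes passed, Muc4 and Zg16 being added. Of all genes, 15.2%, 15.5% and 12.5% passed there in either direction, and 13.7% in the main fit. The count depended on the inflamed library of animal 221, without which 10 genes passed, beside 16.4% of all genes. A single control remained when control 216 or 217 was left out. The log2 ratios were then -2.04 or -1.66 for Muc1 and -2.75 or -3.06 for Muc13. I-C and UI-C share the 2 controls.

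Uninflamed regions and controls did not differ past the threshold in any of the 10 genes, where 0.145% of all genes passed. None reached an unadjusted p under 0.05 in edgeR's quasi-likelihood test, as 8.89% of all genes did, and none was called by exactTest, DESeq2 or limma-voom. The values nevertheless fell on both sides of the controls. Muc2, Zg16 and Muc4 were higher in all 6 uninflamed regions than in both controls (log2 ratios 1.85, 1.41 and 0.71, standard errors 1.04, 1.01 and 0.43, adjusted p = 0.655, 0.752 and 0.675), and such separation upward held for 5.23% of all genes. Fcgbp, Tff3 and Muc13 were lower in all 6 (log2 ratios -1.13, -0.97 and -0.71, standard errors 0.77, 0.85 and 0.69, adjusted p = 0.731, 0.806 and 0.834), and such separation downward held for 6.16% of all genes. Muc1, Itln1, Agr2 and Spdef overlapped the controls.

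The ratio of Muc2 to Fcgbp reads within a library does not depend on scaling between libraries. It was 0.582 to 2.27 in inflamed regions (median 1.77), 0.352 to 4.64 in uninflamed regions (median 1.86) and 0.21 in each control. All 12 samples of TNBS-treated rats, inflamed and uninflamed, lay above the controls, with animal 218 the closest in both regions. The ratio of Muc2 to Spdef reads was 8.82 to 29.9 in inflamed regions (median 10.8), 32.8 to 63.7 in uninflamed regions (median 43.8) and 21.7 and 24.4 in controls. Muc2 per Spdef read was thus higher in every uninflamed region than in any other sample. Both ratios were chosen, out of 7 computed, after their values were seen. Only the ratio to Spdef separated inflamed from uninflamed regions. The place of the TNBS samples above the controls was not particular to Fcgbp. Muc2 reads per Itln1 read were 4.8 to 16.4 in inflamed regions, 1.74 to 44.2 in uninflamed regions and 0.822 and 1.4 in controls. Per Tff3 read they were 2.07 to 13.2, 2.36 to 19.8, and 1.32 and 1.59. Muc2 reads per Agr2 read were 1.19 to 3.23 in inflamed regions, 1.49 to 4.43 in uninflamed regions and 1.24 and 2.01 in controls. Muc2 reads per Zg16 read were 3.51 to 11.8 in inflamed regions (median 8.52), 1.74 to 9.96 in uninflamed regions (median 4.62) and 3.21 and 2.94 in controls.

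Markers of epithelium in general fell along with the mucus genes, all 14 of 14 in I-UI, with a median log2 ratio of -2.19. Their summed level was 250.0 to 4630 CPM in inflamed regions, 4320 to 8280 CPM in uninflamed regions and 4450 to 8410 CPM in controls, with the highest inflamed sum in animal 221. Marker RNA of other epithelial cell types fell too. Markers of absorptive colonocytes fell in 6 of 7 cases in I-UI, with a median log2 ratio of -3.68 beside -2.33 for the mucus genes, and sums of 98.3 to 373 CPM in inflamed regions, 1160 to 4740 CPM in uninflamed regions and 1580 to 2180 CPM in controls. Enteroendocrine markers fell in 4 of 5 cases (median -2.32), with sums of 6.26 to 36 CPM in inflamed regions, 45.1 to 114 CPM in uninflamed regions and 21 to 32.3 CPM in controls. All 7 neutrophil markers rose, with sums of 387 to 2180 CPM in inflamed regions, 18 to 34.6 CPM in uninflamed regions and 23.4 to 25.5 CPM in controls. Smooth muscle markers fell in 3 of 5 cases, with sums of 751 to 3490 CPM in inflamed regions, 2860 to 8860 CPM in uninflamed regions and 3410 to 4260 CPM in controls. General leukocyte markers rose in 4 of 6 cases, with sums of 272 to 947 CPM in inflamed regions, 89.4 to 319 CPM in uninflamed regions and 99.4 to 102 CPM in controls, and fibroblast markers in 3 of 6, with sums of 2480 to 9080 CPM in inflamed regions, 1520 to 5100 CPM in uninflamed regions and 1630 to 1770 CPM in controls. The part of these shifts in the falls of the mucus genes was not tested.

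Each gene was therefore also expressed as a percentage of the summed epithelial markers of its own library, as a description. Zg16 stood at 0.739% to 3.13% of the epithelial sum in inflamed regions, 4.11% to 8.35% in uninflamed regions and 1.76% and 3.66% in controls. Inflamed and uninflamed regions did not overlap, and the inflamed percentage was the lower one in 6 of 6 animals, at a median of 0.322 of the uninflamed one. Muc2 stood at 6.06% to 26.2% in inflamed regions, 12.4% to 43.1% in uninflamed regions and 5.64% and 10.8% in controls, lower in the inflamed region in 6 of 6 animals at a median of 0.548. As a percentage of this sum Spdef moved the other way, at 0.507% to 2.98% in inflamed and 0.318% to 1.09% in uninflamed regions. It stood at 0.26% and 0.442% in controls, and was higher in the inflamed region in 6 of 6 animals (median 1.44 times). The sum is weighted toward abundant markers such as Krt8 and Krt19 (means of 1870 and 1020 CPM in uninflamed regions). In I-UI the single markers had log2 ratios of -2.96 to -1.61, a range that holds those of Spdef (-1.67) and Muc2 (-2.94). The percentages of these genes therefore depend on which markers weigh most. Muc13 (median 0.988) and Tff3 (median 0.975) fell about as far as the epithelial markers, each lower in 3 and higher in 3 animals. Fcgbp and Agr2 were lower in 5 of 6 animals (medians 0.563 and 0.735), Itln1 in 4 (median 0.595), Muc1 in 3 (median 0.922) and Muc4 in 2 (median 1.13). The epithelial sum itself was lowest in the inflamed regions of animals 220 and 223, at 250.0 and 309 CPM.

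**Figure D3:**
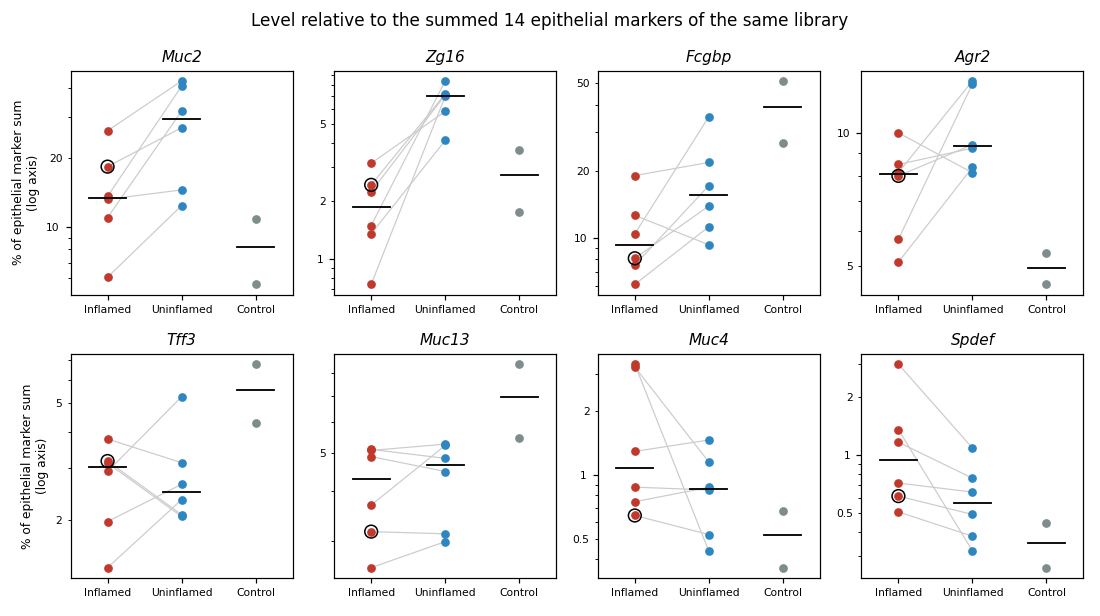
The level of 8 genes is plotted as a percentage of the summed 14 epithelial markers of the same library, on a log axis, for inflamed (n = 6), uninflamed (n = 6) and control (n = 2) samples. Bars are medians, grey lines join the regions of 1 animal and the circle marks the inflamed region of animal 221. Zg16 lies lower in all 6 inflamed regions (0.739% to 3.13%) than in any uninflamed region (4.11% to 8.35%), and Spdef rises along every line toward the inflamed side.

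The extent of loss differed between rats. Summed over the 10 genes, inflamed regions held 128 CPM in animal 223, 163 in animal 220, 390 in animal 218, 418 in animal 219, 766 in animal 222 and 2110 in animal 221, while uninflamed regions held 3690 to 5580 CPM and controls 4720 and 4240 CPM. Animal 223 had the lowest inflamed value of 8 genes and animal 220 of the other 2. Among uninflamed regions, animal 218 was lowest for Muc2, Muc13, Agr2 and Spdef and yet highest for Fcgbp and Tff3. That library also had the lowest TMM factor (0.63) and the highest fibroblast marker sum (5100 CPM) of its group. Their part in these extremes was not tested.

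After subtraction of the group means from log2 CPM, all 45 pairs among the 10 genes correlated positively over the 14 libraries (median r = 0.69, from 0.23 to 0.95). These values describe libraries that also differ in epithelial content and depth. All of them include the inflamed library of animal 221, the highest of its group for all 10 genes, and no r without it is given. Tff3 with Muc13 (r = 0.95) and Spdef with Muc2 (r = 0.94) were the closest pairs, and Itln1 with Zg16 (r = 0.23) the most distant. Fcgbp followed Tff3 (r = 0.90) and Muc13 (r = 0.87) more closely than Spdef (r = 0.48) or Muc4 (r = 0.46). Outside the 10 genes, among 13736 genes searched, the nearest to Muc2 were Ttc38 (r = 0.97), the epithelial ETS factor Ehf (r = 0.97) and the brush border enzyme Mgam (r = 0.96). The nearest to Spdef were the copper transporter Atp7b (r = 0.95), the second gel-forming mucin Muc5b (r = 0.94) and the mucin glycosyltransferase Galnt3 (r = 0.94). Muc13 was nearest to Epcam and Cdh1, both general epithelial genes (r = 0.97 each), Fcgbp to Clca1, a secreted goblet cell protein (r = 0.96), Agr2 to Rab25 (r = 0.98) and Tff3 to Tspan1 (r = 0.99). For Itln1 the nearest were Anxa13 (r = 0.95), the sulfate donor synthase Papss2 (r = 0.93) and the sulfotransferase Chst5 (r = 0.93), for Zg16 Clrn3 (r = 0.97), for Muc4 Rasd2 (r = 0.95) and for Muc1 Tradd (r = 0.90).

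**Figure D4:**
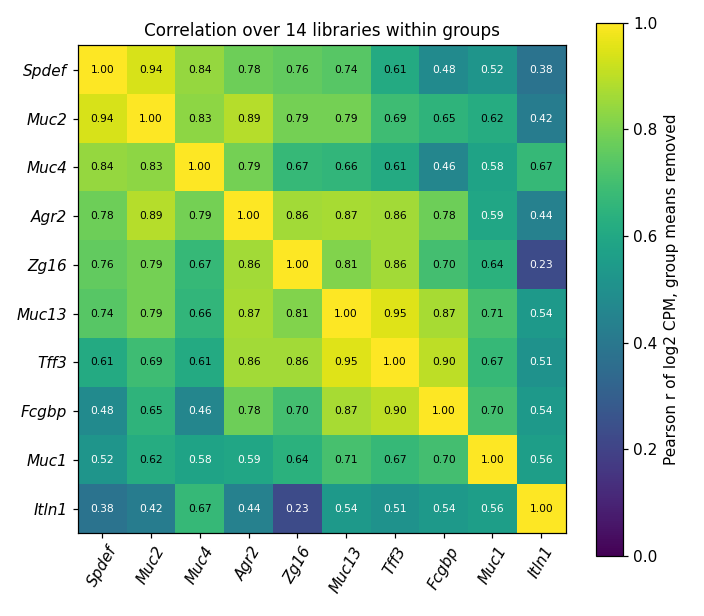
The matrix gives Pearson's r between the log2 CPM of the 10 genes over 14 libraries, after the mean of each group was subtracted, with colour from 0 to 1. Spdef, Muc2, Muc4 and Agr2 form the upper left block, Muc13, Tff3 and Fcgbp the block below it, and Itln1 has the lowest values, down to 0.23 with Zg16.

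Other genes of the mucus pathway were counted in lists drawn up by function. Of 7 other mucins tested, 2 fell in I-UI and none rose. The transmembrane mucin Muc3 averaged 61.4 ± 44.5 CPM in inflamed regions, 583 ± 457 CPM in uninflamed regions and 1130 ± 63.0 CPM in controls (SD, n = 6, 6 and 2), a log2 ratio in I-UI of -3.24 (adjusted p = 0.00359). The gel-forming Muc5b averaged 8.23 ± 8.71 CPM in inflamed regions, 38.4 ± 18.9 CPM in uninflamed regions and 16.8 ± 2.45 CPM in controls (log2 ratio in I-UI -2.21, adjusted p = 0.00635). The gastric mucins Muc5ac and Muc6 had log2 ratios of 0.22 (adjusted p = 0.62) and 0.38 (adjusted p = 0.149) and stayed at a mean of 5.11 CPM or less. Of 10 other secreted and granule genes tested, 6 fell in I-UI and none rose, among them Clca1 (log2 ratio -2.84), Agr3, a relative of Agr2 (-1.99), and the granule exocytosis genes Sytl4 (-1.53) and Sytl2 (-1.08). In I-C 4 of these 10 fell.

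Of 12 listed transcription factors and secretory stress genes, not all of them particular to goblet cells, 8 fell in I-UI and none rose. Their median log2 ratio was -1.74. Klf4, a factor of goblet cell differentiation, averaged 16.2 ± 13.5 CPM in inflamed regions, 69.6 ± 16.4 CPM in uninflamed regions and 155 ± 54.8 CPM in controls (log2 ratio in I-UI -2.10, adjusted p = 0.00179). Creb3l4 (-2.51), Foxa2 (-2.04) and the Notch target Hes1 (-1.25) fell as well, while Xbp1, the transcription factor of the unfolded protein response, had a log2 ratio of -0.24 (adjusted p = 0.43). In I-C 3 of the 12 fell. Of 11 genes of mucus release and processing, 6 fell in I-UI, among them the metalloprotease Mep1a (-3.21), whose partner subunit meprin beta cleaves MUC2 in mice, the chloride channel Cftr (-2.19) and the inflammasome receptor Nlrp6 (-3.30, taken from the row with more reads of 2 rows with that name). Vamp8 passed the adjusted p but not the 2-fold change (log2 ratio -0.91, adjusted p = 0.00269). Of 13 genes of mucin glycosylation tested, 7 fell in I-UI. Among them were the chaperone of core 1 synthesis C1galt1c1 (-1.74) and the core 3 enzyme B3gnt6 (-2.39, at a mean of 0.728 CPM in inflamed and 3.88 CPM in uninflamed regions). St6galnac1 (-2.54), which adds sialic acid, and Galnt12 (-1.84), which adds the first sugar of the O-glycan, fell too. In I-C 3 of the 13 fell and 1 rose. The share of all genes lower past the threshold, 6.95% in I-UI and 7.79% in I-C, stands beside each of these counts. In I-C 5.93% of all genes were higher.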

How the data were processed

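The authors deposited raw counts, 1 value per gene in each of 14 libraries, with no normalization. They depleted ribosomal RNA, sequenced 50-base reads (SOLiD), aligned them to Rnor_5.0 with Ensembl release 77 in CLC Genomics Workbench 7.5.1 (2 mismatches, up to 10 places per read) and removed reads on ribosomal RNA genes. Reads from near-identical copies and mucin repeats are therefore uncertain, and nothing in the sources used here says whether strand was used. A spreadsheet date replaced the name of 25 rows (0.219% of reads).

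All 14 libraries entered 1 fit with 3 groups in edgeR 4.0.16 (R 4.3.3; TMM, filterByExpr with a minimum count of 10, robust quasi-likelihood test), which kept 18678 genes. Standard errors were derived from the F statistic. The study's own test, exactTest, was an alternative, with DESeq2 1.42.0, limma-voom (limma 3.58.1), other scaling, no filter, fits of 2 groups, a replicate block and each animal left out. The procedure was tested on simulated data. Of simulated 2-fold changes it recovered 32.8% in I-UI, 16.4% in I-C and 2.99% in UI-C. Of 4-fold changes it recovered 83.6%, 52.2% and 71.6%. A missing call in UI-C therefore says little about changes near 2-fold. Log2 CPM used a prior count of 2. Inflamed and uninflamed libraries are paired by the animal number in the labels. The correlation of deviations within a pair was -0.12 to 0.18 over all genes. P-values of the main fit rest on the spread between libraries. The 2 regions of 1 rat count there as separate samples, and only the replicate block takes the animal into account.

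Members, lists and the comparisons were chosen with earlier results of these data known. Of 120 list symbols, 106 matched by name, 2 by synonym and 12 had no match. All 10 members are named, up to 4 genes per list, those of smallest adjusted p for I-UI, and the 3 nearest genes per member by correlation. Some genes that this rule names are left out. Xbp1, Muc5ac and Fcgbpl1 fall outside this rule and were chosen after their values were seen.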

Additional observations from a re-analysis of the deposited data

Results flagged for a closer look

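In 8 of the 20 sets of 6 libraries examined (10 genes in inflamed and in uninflamed regions), 1 library lay far from the other 5 by Dixon's criterion, and each time it was the inflamed library of animal 221, on the high side. The criterion was applied to CPM without a log. Its chance rate of about 1 in 20 sets assumes normally distributed values and need not hold here. The genes also vary together, so that these are not 8 separate events. The values in animal 221, each with the next highest inflamed value, were 847 CPM beside 200.0 for Muc2, 29.8 beside 13.6 for Muc4, 146 beside 58.4 for Muc13 and 112 beside 32.8 for Zg16. They were 51.7 beside 15.9 for Itln1, 147 beside 46 for Tff3, 370 beside 125 for Agr2 and 28.4 beside 12.3 for Spdef. In the same library the summed epithelial markers were 4630 CPM, beside 1470 CPM in the next highest inflamed library. As a percentage of that sum, animal 221 lay within the range of the other inflamed regions for Muc2 (18.3%), Zg16 (2.42%), Tff3 (3.18%), Agr2 (7.99%) and Spdef (0.613%). For Muc4 it was the lowest of the 6 (0.644%).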

How the results depend on the processing

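The count of 9 genes past the threshold in I-UI was 9 or 10 under every alternative tried, and that of 0 in UI-C stayed 0. With the animals as a replicate block it was 10 in I-UI, Tff3 being the gene gained, and no other I-UI call changed; the controls are other animals, so that I-C and UI-C have no block. The count of 5 in I-C was 7 with exactTest, DESeq2 and limma-voom. It was 3 with library totals in place of TMM factors and 3 with only the libraries compared in the fit. All genes passed there in 20.6% and 10.6% of cases, against 13.7% in the main fit. The I-C count was 10 without animal 221, whether both its regions or (chosen after seeing the data) only the inflamed one was left out. The shares of all genes were then 16.1% and 16.4%. Without any other TNBS-treated animal the count was 4 or 5, beside 10.7% to 14.9% of all genes. Fits without control 216 or 217 keep a single control. In I-UI the share of all genes was 9.21% to 15.6% over the alternatives. Of the log2 fold changes of single genes under the alternatives, 182 of 190 in I-UI, 142 of 170 in I-C and all 170 in UI-C kept direction and side of the threshold, and none changed direction. All 8 changes in I-UI were Tff3 passing. Library totals in place of TMM factors moved the median log2 fold change of all genes to 0.28 in I-UI, 0.72 in I-C and 0.43 in UI-C, against 0.04, 0.10 and 0.05 with TMM. The cause of the other changes was not tested. Depth limits Muc1, which had 8 to 34 reads in inflamed libraries, and 2 controls limit every comparison with them.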
